A study of Mus musculus with 6 samples.

Results

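The genes described here are 10 transcription factors and coactivators that specify brown adipocytes or run their thermogenic and oxidative programme: *Prdm16*, *Ebf2*, *Zfp516*, *Irf4*, *Ppara*, *Pparg*, *Esrra*, *Esrrg*, *Ppargc1a* and *Ppargc1b*. They were found by symbol among the 47729 genes of the deposited files, and all 10 were detected in every mouse and passed the filter on low counts. Interscapular BAT of 3 HFD-fed and 3 LFD-fed wild type male C57BL/6J mice was compared. Feeding began at 6 weeks of age and lasted 4 weeks, the HFD supplied 45% of calories as fat, and the LFD is a standard rodent diet in the labels. The mice are separate animals chosen by the study from each diet for the greatest, medium and least fat mass, and the sources used here do not say which replicate number is which. RNA was depleted of ribosomal RNA and sequenced as single reads, and the comparison asks whether regulators of the brown fat programme differ between the diets.

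Brown adipocytes burn fatty acids in mitochondria that are uncoupled by UCP1. Adrenergic signals raise cAMP in these cells, and the coactivators PGC-1alpha and PGC-1beta, encoded by *Ppargc1a* and *Ppargc1b*, dock on nuclear receptors such as the PPARs and the oestrogen-related receptors and raise transcription of genes for fatty acid oxidation, respiration and heat production. PRDM16, EBF2 and ZFP516 act earlier or at other enhancers to set and keep brown identity, PPARgamma is needed for any adipocyte to form, and IRF4 is a partner of PGC-1alpha in adipocytes as well as a regulator of lymphocytes.

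Between 17156991 and 21603487 rounded expected counts were available per mouse. The share of counts from mitochondrially encoded genes was 8.50% to 22.7% in HFD-fed and 3.87% to 13.8% in LFD-fed mice, and in each diet it was highest in mouse 1 and lowest in mouse 3. The tissue label was checked against its markers. TPM (the share of a library that falls to a gene, corrected for gene length) of *Ucp1*, a gene named here after its values were seen, was 2728, 4021 and 796 in HFD-fed mice 1, 2 and 3 and 443, 11.0 and 76.0 in LFD-fed mice 1, 2 and 3. The defining brown fat gene was thus detected in all 6 libraries, but with only 241 counts in LFD-fed mouse 2. Detection does not show how much brown fat a library held. *Ucp1* was lower in every LFD-fed mouse than in every HFD-fed mouse, a pattern of 1.65% of tested genes on log2(TPM + 1). Its lowest values were those of LFD-fed mice 2 and 3. The 10 brown adipocyte markers summed to between 2046 and 7918 TPM in HFD-fed mice. In LFD-fed mice 1, 2 and 3 they summed to 2221, 617 and 322 TPM. None was at 0 in any mouse. Skeletal muscle markers, 16 genes, summed to between 8.56 and 201 TPM in HFD-fed mice and between 1968 and 13725 TPM in LFD-fed mice. The highest sum was that of LFD-fed mouse 2, where the brown adipocyte markers summed to 617 TPM. Of the muscle markers, 16 of 16 were lower in every HFD-fed mouse than in every LFD-fed mouse, against 11.6% of tested genes on log2(TPM + 1). Only *Myh7* was at 0 in any library. *Ppara*, *Ppargc1a*, *Esrra* and *Esrrg* are also expressed in muscle. In whole tissue, a different number of cells of a type and a different amount of RNA per cell cannot be told apart.

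None of the 10 regulators passed the test for a diet difference, and neither did any other gene. The test was edgeR's quasi-likelihood test with Benjamini-Hochberg adjustment over 17668 genes, with calls made where the adjusted p was under 0.01 with an absolute log2 fold change above 1.5. It called 0 genes higher and 0 genes lower in HFD-fed mice, 0% of those tested in each direction, with a smallest adjusted p of 0.170. At an unadjusted p under 0.05, 682 genes were higher (3.86%) and 1169 lower (6.62%). Among the 10 regulators, 3 were higher at this level (*Ppara*, *Prdm16* and *Ppargc1b*) and 1 was lower (*Irf4*). DESeq2 with default settings called 106 genes higher and 305 lower at the same thresholds, with none of the 10 regulators among them, although *Ppara* had a DESeq2 adjusted p of 0.0383.

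Log2 fold changes, HFD over LFD, were positive for 8 of the 10 regulators, with a median of 0.95 beside -0.05 over all tested genes. The median was 0.68 to 1.45 with a mouse left out, the highest being without LFD-fed mouse 1. The count at an unadjusted p under 0.05 changed when single mice were left out, in fits that also had fewer mice. Without LFD-fed mouse 2 it was 0 higher and 0 lower, against 2.68% and 4.47% of all genes in that fit. Without HFD-fed mouse 2 it was 1 and 1 (2.17% and 4.01% of genes), without HFD-fed mouse 3 it was 5 and 0 (2.17% and 3.89%), and without HFD-fed mouse 1 it was 2 and 0 (3.74% and 5.88%). Without LFD-fed mouse 1 it was 4 and 0 (6.01% and 8.27%), and without LFD-fed mouse 3 it was 2 and 1 (7.70% and 9.55%). It was 5 higher and 1 lower under DESeq2 (3.49% and 5.27% of genes), with no normalization factors (2.84% and 5.55% of genes), with no filter on low counts (3.27% and 5.45%) and with limma on log2(TPM + 1) (1.68% and 6.31%). The mice carry the numbers 1 to 3 in both diets, and same-numbered mice deviated together across genes. They are separate animals that no label pairs, so the block and its p values rest on a pairing read from the same counts. With the number as a replicate block, 6 regulators were higher and 1 lower at an unadjusted p under 0.05, against 8.75% and 8.76% of all genes. In this paired fit the smallest adjusted p values of edgeR's quasi-likelihood test were 0.0540 for *Ppargc1a*, 0.0582 for *Ppara*, 0.0771 for *Esrrg* and 0.0798 for *Ppargc1b*, so no regulator was called. The plot of fold changes shows both fits side by side.

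**Figure D1:**
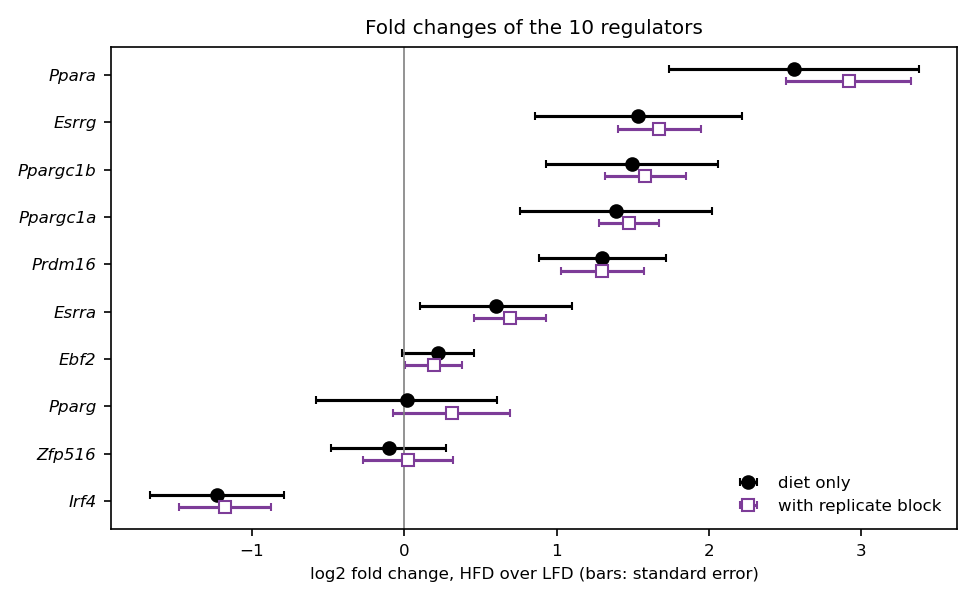
Log2 fold change of each of the 10 regulators in BAT, HFD over LFD, with bars of 1 standard error, from 3 mice per diet; filled circles are the fit on diet alone and open squares the fit with the replicate block. *Ppara* lies farthest to the right at 2.56 and *Irf4* farthest to the left at -1.23 in the fit on diet alone, and the bars of *Pparg*, *Zfp516* and *Ebf2* reach 0.

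Within the replicate numbers, *Prdm16*, *Ppargc1a*, *Ppargc1b*, *Ppara*, *Esrra* and *Esrrg* were higher in the HFD-fed mouse of all 3 pairs on log2 CPM (counts scaled to the TMM-normalized library size), which held for 21.1% of all tested genes. *Irf4* was lower in all 3 pairs, as were 21.3% of genes, and the other 3 regulators were mixed. Ignoring the numbers, *Ppara* and *Prdm16* were the only regulators whose log2 CPM in every HFD-fed mouse lay above every LFD-fed mouse, a pattern of 6.72% of genes. No regulator lay below in all, against 9.23% of genes. With 2 mice against 3 separation is easier, and the count above was 6 without HFD-fed mouse 3, against 9.56% of genes, and 4 without LFD-fed mouse 1, against 13.9%.

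**Figure D2:**
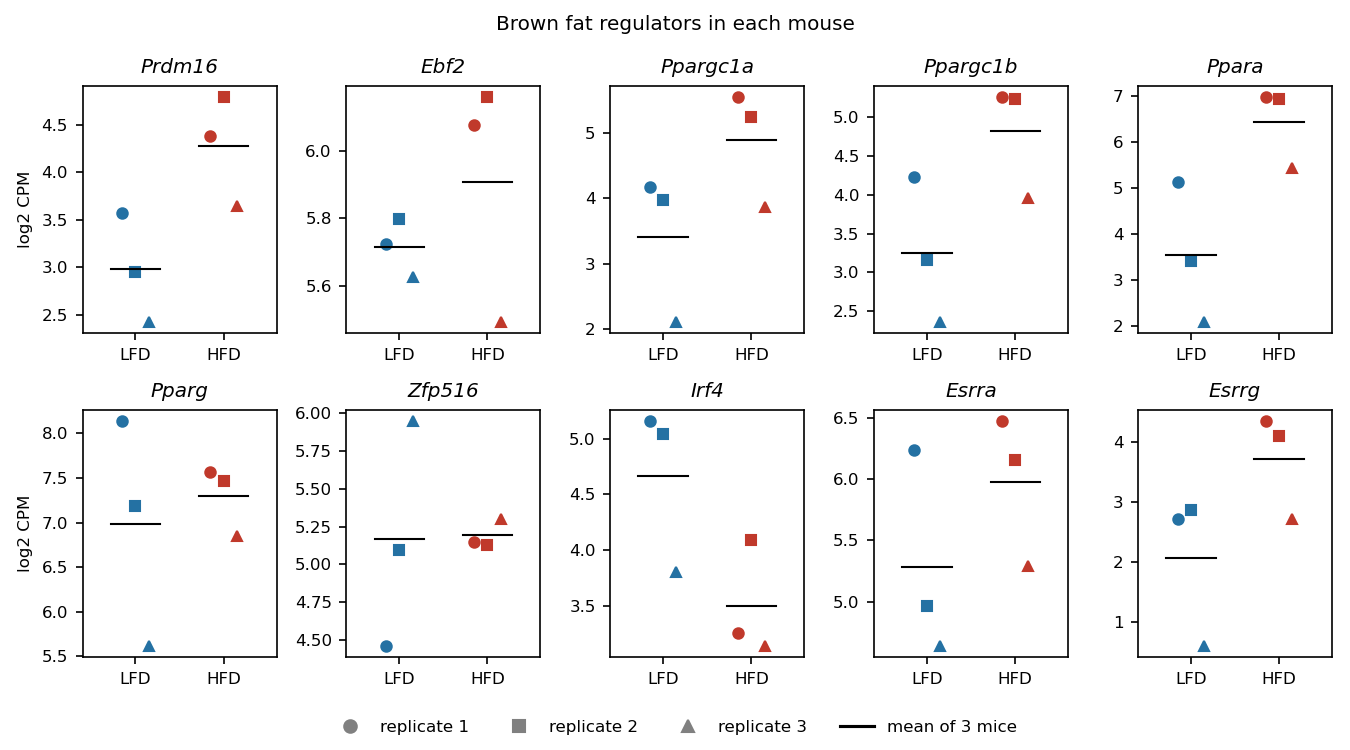
Log2 CPM of each of the 10 regulators in the 6 mice; points are mice, shapes are replicate numbers, lines are means of 3 mice, and each panel has its own vertical scale. The diets do not overlap for *Ppara* and *Prdm16*, and mouse 3 is the lowest of its diet for 9 of the 10 regulators and the highest of its diet for *Zfp516*.

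Start regions are shown for the gene with the largest fold change, for the cAMP-induced coactivator and for the gene with the lowest fold change. Windows of 300 bases, 250 before and 50 after the RefSeq start (GRCm38.p6), matched 7 of the 10 regulators in 12 windows; *Ebf2*, *Ppargc1b* and *Zfp516* were not matched. Capitals mark a motif found by letters on either strand: TGACG, the core of the cAMP response element, read CGTCA on the opposite strand, or TATAAA. Positions count from the start site.

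Ppara, chr15:85735526-85735825, plus strand, with TGACG at -222: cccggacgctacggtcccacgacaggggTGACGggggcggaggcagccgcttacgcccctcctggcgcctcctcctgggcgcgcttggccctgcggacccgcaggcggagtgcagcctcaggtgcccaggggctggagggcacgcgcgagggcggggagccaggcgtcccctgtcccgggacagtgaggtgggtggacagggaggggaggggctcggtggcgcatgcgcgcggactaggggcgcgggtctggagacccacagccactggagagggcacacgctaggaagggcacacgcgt
Ppargc1a, chr5:51567676-51567975, minus strand, with TGACG on the opposite strand at -49: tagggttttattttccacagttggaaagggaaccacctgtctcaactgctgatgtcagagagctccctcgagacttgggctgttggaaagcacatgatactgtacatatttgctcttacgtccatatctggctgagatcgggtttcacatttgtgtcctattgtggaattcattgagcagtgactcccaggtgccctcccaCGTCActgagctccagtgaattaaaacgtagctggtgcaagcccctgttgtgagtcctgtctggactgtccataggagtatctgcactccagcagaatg
Irf4, chr13:30748983-30749282, plus strand, with TATAAA at -26: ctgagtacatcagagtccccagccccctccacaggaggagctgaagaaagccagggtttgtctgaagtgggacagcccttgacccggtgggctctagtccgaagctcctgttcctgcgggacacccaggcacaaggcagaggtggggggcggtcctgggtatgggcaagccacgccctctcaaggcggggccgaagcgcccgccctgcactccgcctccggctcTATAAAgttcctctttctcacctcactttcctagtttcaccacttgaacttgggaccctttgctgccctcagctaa

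Of all 32851 windows in the table, 20.8% held TGACG, 1.79% the full element TGACGTCA (which contains TGACG), 16.3% the nuclear receptor core AGGTCA, 4.72% the longer AAGGTCA (which contains AGGTCA) bound by oestrogen-related receptors, and 13.6% TATAAA. The *Ppara* window was 74.7% G or C with 30 CpG dinucleotides, the *Ppargc1a* window 48.7% with 5, and the *Irf4* window 61.0% with 11, beside medians of 52.7% and 7 over all windows. Among the other windows, AGGTCA was found in 2 windows of *Pparg*, at -28 and -9, and TATAAA in 1 window of *Pparg* at -29 and 1 of *Esrrg* at -19, both on the opposite strand. No searched motif was found in the windows of *Esrra* and *Prdm16*. The *Ppargc1a* window is that of the upstream start; in GENCODE M21, 2 of its transcripts start within this window and 3 start 13.8 to 13.9 kb downstream, and counts per gene do not separate them.

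Among the nuclear receptors, PPARalpha, encoded by *Ppara* (chromosome 15, 85734983 to 85802819, plus strand, GRCm38), is the receptor for fatty acids that drives their oxidation. *Ppara* had the largest fold change of the 10. Its level was 48.8, 77.4 and 26.4 TPM in HFD-fed mice 1, 2 and 3, and 15.4, 7.82 and 4.48 TPM in LFD-fed mice 1, 2 and 3. The lowest HFD-fed mouse was above the highest LFD-fed mouse, and within each diet mouse 3 was the lowest. The log2 fold change was 2.56 ± 0.82 (SE, n = 3 mice per diet), with an edgeR adjusted p of 0.351, and an exact two-sided permutation test of log2 CPM gave p = 0.1, the smallest that 3 mice against 3 allow. Leaving out a mouse moved the log2 fold change between 2.09 and 3.73.

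PPARgamma, encoded by *Pparg* (chromosome 6, 115360951 to 115490399, plus strand), is required for adipocyte formation and was the most abundant of the 10 in every mouse. Its level was 125, 193 and 133 TPM in HFD-fed mice and 204, 185 and 67.8 TPM in LFD-fed mice. The LFD-fed mice included both the highest and the lowest value. This gave a log2 fold change of 0.02 ± 0.59 (SE, n = 3 mice per diet; edgeR adjusted p = 0.996), and its sign changed when single mice were left out, from -0.41 to 0.73.

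The ratio of *Ppara* to *Pparg* within a mouse does not depend on the scaling of libraries. *Ppara* reached 0.389, 0.400 and 0.199 of the *Pparg* TPM in HFD-fed mice 1, 2 and 3, and 0.0751, 0.0422 and 0.0661 of it in LFD-fed mice 1, 2 and 3. The lowest HFD-fed ratio was above the highest LFD-fed ratio. On the log2 scale, with 0.1 TPM added to each level, the HFD-fed mice had a mean ratio of -1.67 ± 0.57 (SD, n = 3) and the LFD-fed mice of -4.06 ± 0.44 (SD, n = 3), a difference of 2.39 (exact two-sided permutation p = 0.1, the smallest possible, and 0.3 adjusted over 3 ratios).

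The oestrogen-related receptors need no known hormone and control mitochondrial genes with the PGC-1 coactivators. *Esrra* (chromosome 19, 6910977 to 6921813, minus strand) encodes ERRalpha and was measured at 54.8, 70.6 and 38.5 TPM in HFD-fed mice and 50.3, 36.1 and 32.3 TPM in LFD-fed mice. Its diets overlapped, since LFD-fed mouse 1 was above HFD-fed mouse 3. HFD over LFD, the log2 fold change was 0.60 ± 0.50 (SE, n = 3 mice per diet; edgeR adjusted p = 0.773), 1.25 without LFD-fed mouse 1 and 0.31 without LFD-fed mouse 3.

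*Esrrg* (chromosome 1, 187608791 to 188214885, plus strand) encodes ERRgamma, a receptor of highly oxidative tissues, and had the lowest mean level of the 10. It was measured at 4.33, 7.31 and 3.34 TPM in HFD-fed mice and 1.14, 3.84 and 0.460 TPM in LFD-fed mice, from 152 to 358 counts and from 29 to 151 counts. In TPM LFD-fed mouse 2 lay above HFD-fed mouse 3 and the other LFD-fed mice lay below all HFD-fed mice, whereas in log2 CPM LFD-fed mouse 1 and HFD-fed mouse 3 were level, at 2.73 and 2.72. The log2 fold change was 1.54 ± 0.68 (SE, n = 3 mice per diet; edgeR adjusted p = 0.499). The ratio of *Esrra* to *Esrrg* was 12.7, 9.66 and 11.5 in HFD-fed mice, and 44.1, 9.41 and 70.2 in LFD-fed mice, which overlapped through LFD-fed mouse 2. The log2 difference between diets was -1.34 (exact two-sided permutation p = 0.4, and 0.6 adjusted over 3 ratios). It was -2.14 without LFD-fed mouse 2 and -0.81 without LFD-fed mouse 3.

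Of the PGC-1 coactivators, *Ppargc1a* (chromosome 5, 51454250 to 51567726, minus strand) encodes PGC-1alpha, which cold and adrenergic signals induce. Its level was 11.2, 16.0 and 6.48 TPM in HFD-fed mice 1, 2 and 3 and 4.08, 7.45 and 1.84 TPM in LFD-fed mice 1, 2 and 3. In each diet mouse 2 was the highest and mouse 3 the lowest, and HFD-fed mouse 3 lay below LFD-fed mouse 2. On the log2 scale the fold change was 1.39 ± 0.63 (SE, n = 3 mice per diet; edgeR adjusted p = 0.508). With the replicate block it was 1.48 ± 0.20, with the adjusted p of 0.0540 given above.

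*Ppargc1b* (chromosome 18, 61298136 to 61400431, minus strand) encodes PGC-1beta, a relative that maintains mitochondrial content. Its level was 10.8, 20.9 and 8.29 TPM in HFD-fed mice and 4.83, 4.55 and 2.80 TPM in LFD-fed mice. Every HFD-fed mouse was above every LFD-fed mouse in TPM, a pattern of 1.65% of tested genes on log2(TPM + 1). In log2 CPM HFD-fed mouse 3, at 3.96, lay below LFD-fed mouse 1, at 4.23. The log2 fold change was 1.495 ± 0.56 (SE, n = 3 mice per diet; edgeR adjusted p = 0.425), and it was 1.15 to 2.14 when single mice were left out.

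The coactivators stood close to each other in level. *Ppargc1a* was 1.04, 0.767 and 0.782 times *Ppargc1b* in TPM in HFD-fed mice and 0.845, 1.64 and 0.657 times in LFD-fed mice. The diets overlapped, with a log2 difference of -0.19 (exact two-sided permutation p = 0.8, and 0.8 adjusted over 3 ratios), and without LFD-fed mouse 2 the difference was 0.18.

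**Figure D3:**
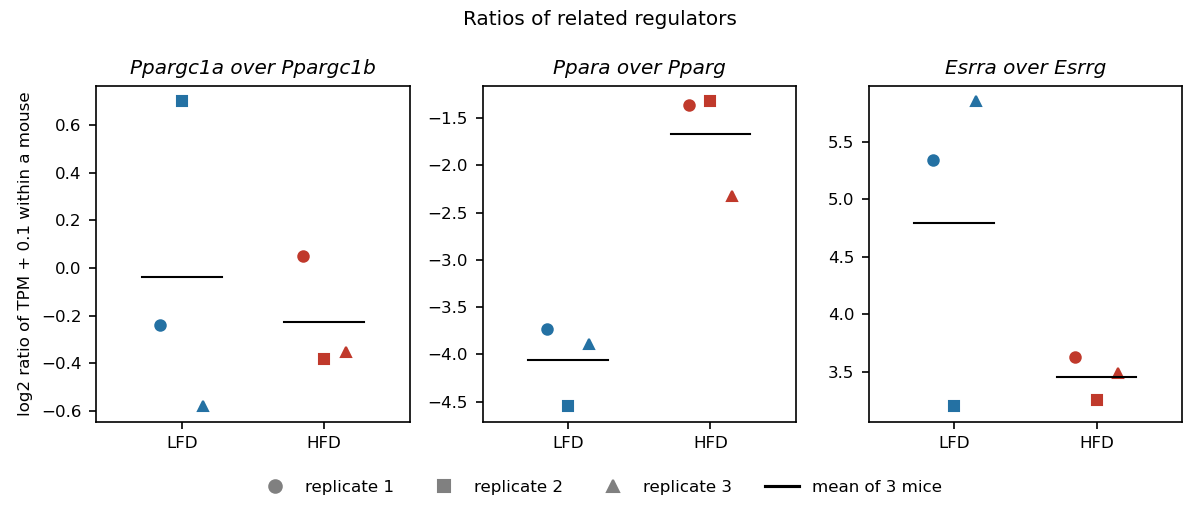
Log2 ratio of TPM + 0.1 between related regulators within each of the 6 mice; points are mice, shapes are replicate numbers and lines are means of 3 mice. The *Ppara* over *Pparg* ratio of the HFD-fed mice lies above that of all LFD-fed mice, and the other ratios overlap between diets.

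Of the factors of brown identity, *Prdm16* (chromosome 4, 154316125 to 154636873, minus strand) encodes a zinc finger coregulator that favours brown fat over muscle fate in precursor cells. Its level was 5.08, 12.3 and 7.52 TPM in HFD-fed mice and 3.22, 3.79 and 3.36 TPM in LFD-fed mice. In TPM the LFD-fed mice were close together and all HFD-fed mice were above them, a pattern of 1.65% of tested genes on log2(TPM + 1). The 95% credibility bounds of TPM of HFD-fed mouse 1, 4.34 to 7.28, nevertheless overlapped those of LFD-fed mouse 2, 3.45 to 6.84. In log2 CPM the LFD-fed mice spread over 3.57, 2.95 and 2.43, and HFD-fed mouse 3, at 3.64, lay just above LFD-fed mouse 1. The log2 fold change was 1.298 ± 0.42 (SE, n = 3 mice per diet; edgeR adjusted p = 0.351), the exact two-sided permutation p was 0.1, and single mice moved the log2 fold change between 1.01 and 1.65.

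*Ebf2* (chromosome 14, 67233292 to 67430918, plus strand) encodes a factor that opens brown fat enhancers for PPARgamma and marks brown preadipocytes. It was measured at 13.9, 24.9 and 15.8 TPM in HFD-fed mice and 12.2, 22 and 22.9 TPM in LFD-fed mice, with wide overlap. Between diets the log2 fold change was 0.22 ± 0.23 (SE, n = 3 mice per diet; edgeR adjusted p = 0.839), which was -0.055 on log2(TPM + 1).

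*Zfp516* (chromosome 18, 82910663 to 83005314, plus strand) encodes a zinc finger protein that activates *Ucp1* together with PRDM16. It was measured at 3.71, 5.98 and 6.93 TPM in HFD-fed mice and 2.53, 6.72 and 13.8 TPM in LFD-fed mice. The LFD-fed mice again held both the lowest and the highest value. Its log2 fold change was -0.10 ± 0.38 (SE, n = 3 mice per diet; edgeR adjusted p = 0.965), 0.02 with the replicate block, and 0.38 without LFD-fed mouse 3.

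*Irf4* (chromosome 13, 30749226 to 30766976, plus strand) encodes a factor that promotes lipolysis and thermogenesis in adipocytes and is needed by lymphocytes. It was the only regulator with a lower value at an unadjusted p under 0.05. Its level was 1.63, 4.77 and 2.52 TPM in HFD-fed mice 1, 2 and 3 and 6.76, 10.7 and 5.11 TPM in LFD-fed mice 1, 2 and 3. Every HFD-fed mouse was below every LFD-fed mouse in TPM, a pattern of 11.6% of tested genes on log2(TPM + 1). The 95% credibility bounds of TPM of HFD-fed mouse 2, 4.18 to 5.15, overlapped those of LFD-fed mouse 3, 4.38 to 5.53. In log2 CPM HFD-fed mouse 2, at 4.09, lay above LFD-fed mouse 3, at 3.80. The log2 fold change was -1.23 ± 0.44 (SE, n = 3 mice per diet; edgeR adjusted p = 0.409), between -1.60 and -0.99 when single mice were left out.

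Markers of lymphocytes and adipocytes, which both express *Irf4*, were set beside it. The 9 B cell markers summed to between 25.6 and 48.2 TPM in HFD-fed and between 38.5 and 308 TPM in LFD-fed mice, and the immunoglobulin genes *Ighm* and *Jchain*, named after their values were seen, reached 275 and 25.5 TPM in an LFD-fed mouse. The B cell list was split. Log2 fold changes were positive for 5 of 7 tested, with a median of 0.30. The negative ones, as for *Irf4*, were *Ighm* at -1.77 ± 0.93 (SE) and *Jchain* at -3.22 ± 1.43 (SE), both overlapping between diets. The HFD-fed mice had a mean log2 CPM of 1.09 and the LFD-fed mice of 1.04, and no B cell marker had an unadjusted p under 0.05. LFD-fed mouse 2 had the highest B cell sum and the highest *Irf4* TPM, whereas in log2 CPM *Irf4* was highest in LFD-fed mouse 1, at 5.16 beside 5.04. T and NK cell markers summed to 15.4 to 48.2 TPM in HFD-fed and 1.99 to 14.7 TPM in LFD-fed mice, positive for 11 of 11 tested. Of these, 8 of 11 were higher at an unadjusted p under 0.05, against 3.86% of all tested genes. Several lay near the floor, with a lowest count of 1 for *Cd3g* and *Prf1* and 2 for *Gzmb*. The mean log2 CPM of 10 adipocyte markers was 9.73, 8.60 and 7.51 in HFD-fed mice and 11.3, 10.3 and 7.86 in LFD-fed mice, lower for 10 of 10 by fold change, with 1 at an unadjusted p under 0.05. No B cell, T and NK cell or adipocyte marker that was tested was at 0 in a mouse. The part of these cells in the *Irf4* values was not tested.

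In order of mean TPM over the 6 mice the regulators were *Pparg* (151), *Esrra* (47.1), *Ppara* (30.0), *Ebf2* (18.6), *Ppargc1b* (8.70), *Ppargc1a* (7.85), *Zfp516* (6.62), *Prdm16* (5.88), *Irf4* (5.24) and *Esrrg* (3.403). *Pparg* was above *Esrra* in 6 of 6 mice, and *Ebf2* was above *Ppargc1b* in 6 of 6. The other neighbours changed places in at least 1 mouse, and their mean log2 difference was smaller than, or close to, its SD over mice. *Esrra* over *Ppara* was such a pair, at 1.22 ± 1.19 (SD, n = 6), and *Prdm16* over *Irf4* another, at 0.23 ± 1.41 (SD, n = 6). The place of *Irf4* differed between diets: it was the 10th of the 10 in every HFD-fed mouse and the 4th or 5th in the LFD-fed mice, as *Prdm16* was above *Irf4* in 3 of 3 HFD-fed and 0 of 3 LFD-fed mice.

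The regulators were set beside marker lists in each mouse. Their mean log2 CPM was 5.50, 5.53 and 4.57 in HFD-fed mice 1, 2 and 3 and 4.95, 4.44 and 3.52 in LFD-fed mice 1, 2 and 3, so that mouse 3 was the lowest in both diets. The 10 brown adipocyte markers had a mean log2 CPM of 8.20, 8.03 and 6.12 in HFD-fed mice and 6.81, 3.27 and 3.38 in LFD-fed mice. Their log2 fold changes were positive for 10 of 10, with a median of 2.09, and 3 of 10 had an unadjusted p under 0.05, or 9 of 10 with the replicate block. Of all tested genes, 3.86% were higher and 6.62% lower at this level, or 8.75% and 8.76% with the replicate block. As for the regulators, HFD-fed mice 1 and 2 were the highest and LFD-fed mouse 1 exceeded HFD-fed mouse 3. The macrophage list overlapped between diets, at 1873 to 3942 TPM in HFD-fed and 598 to 4399 TPM in LFD-fed mice, with 3 of 12 higher and 1 of 12 lower at an unadjusted p under 0.05. Fibroblast and progenitor markers summed to 2876 to 4949 TPM in HFD-fed and 1858 to 26933 TPM in LFD-fed mice, with 0 of 9 higher and 2 of 9 lower. The endothelial markers summed to 111 to 448 TPM in HFD-fed and 152 to 286 TPM in LFD-fed mice, with 1 of 8 higher and 0 lower. The part of cell composition in the regulators' values was not tested.

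**Figure D4:**
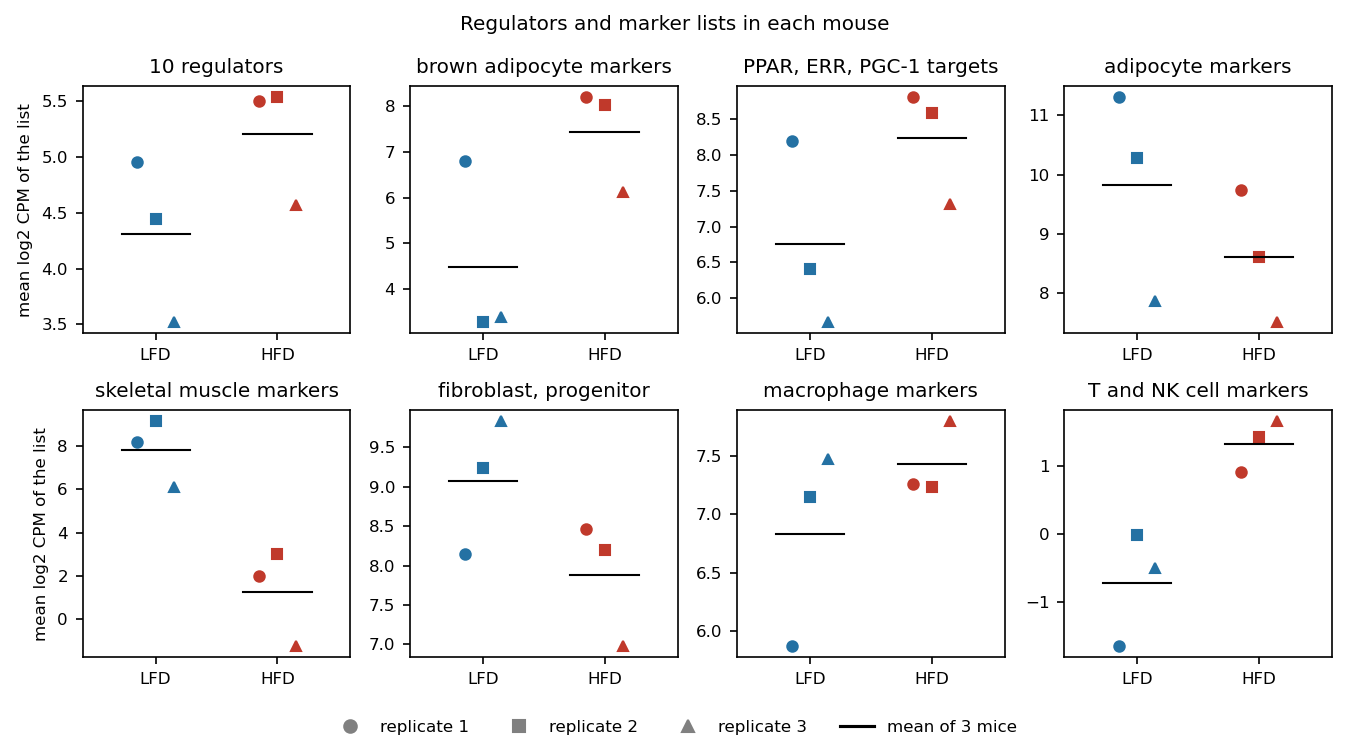
Mean log2 CPM of the 10 regulators, of the target genes and of 6 marker lists in each of the 6 mice; points are mice, shapes are replicate numbers, lines are means of 3 mice, and each panel has its own vertical scale. The skeletal muscle list of all HFD-fed mice lies below that of all LFD-fed mice. In the regulators, brown adipocyte markers and targets LFD-fed mouse 1 lies above HFD-fed mouse 3. All brown adipocyte markers but *Otop1* are also among the targets.

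Of 17 paralogues of the regulators, 16 were tested and *Ebf4* was not. Their median log2 fold change was 0.00. At an unadjusted p under 0.05, 2 were higher and 0 lower, against 3.86% and 6.62% of all tested genes. With the replicate block 4 were higher and 0 lower, against 8.75% and 8.76%. Without LFD-fed mouse 1 or 3 the median was 0.20 or 0.25. The interferon regulatory factors of immune cells differed in direction from *Irf4*. *Irf5* had 21.0, 39.7 and 65.8 TPM in HFD-fed and 6.61, 27.3 and 37.6 TPM in LFD-fed mice, with a log2 fold change of 1.31 ± 0.47 (SE, n = 3 mice per diet; edgeR adjusted p = 0.406). *Irf7*, an interferon-induced member, had a log2 fold change of 1.29 ± 0.50 (SE; edgeR adjusted p = 0.445), and *Irf8*, a factor of myeloid cells, 1.11 ± 0.48 (SE; edgeR adjusted p = 0.488). For these 3 genes every HFD-fed mouse was above every LFD-fed mouse in log2 CPM, a pattern of 6.72% of all tested genes. In TPM all 3 overlapped between diets.

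Of other family members of *Irf4*, *Irf1* was at a log2 fold change of 0.85, *Irf9* at 0.61, *Irf3* at 0.10 and *Irf2* at -0.29, and these 4 overlapped between diets. *Ebf1* and *Ebf3*, relatives of *Ebf2*, were at -0.44 and -0.09. *Pprc1*, the third PGC-1 family gene, was at -0.12 ± 0.41 (SE), and *Ppard*, the third PPAR, at -0.27 ± 0.21 (SE), beside the 2.56 of *Ppara* and the 0.02 of *Pparg*. *Mecom*, the nearest relative of *Prdm16*, was at 0.60, the zinc finger genes *Zfp219* and *Zfp536* at -0.21 and -0.79, and *Esrrb*, below 1 TPM in every mouse, at 0.98 ± 1.04 (SE). No paralogue was called.

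Of 24 partners and cofactors, which bind the regulators or modify chromatin with them, all 24 were tested, with a median log2 fold change of -0.15. At an unadjusted p under 0.05, 1 was higher and 3 lower, against 3.86% and 6.62% of all tested genes. With the replicate block 2 were higher and 3 lower, against 8.75% and 8.76%. Without LFD-fed mouse 1 the median was -0.053. *Rxra*, which encodes the obligate dimer partner of the PPARs, had 23.0, 28.8 and 27.8 TPM in HFD-fed and 76.0, 69.1 and 51.2 TPM in LFD-fed mice. All HFD-fed mice were below all LFD-fed mice, a pattern of 9.23% of all tested genes in log2 CPM. The log2 fold change of *Rxra* was -1.11 ± 0.39 (SE, n = 3 mice per diet, edgeR adjusted p = 0.397). *Smarcd3*, a chromatin remodelling subunit of heart and skeletal muscle, was at -1.11 ± 0.29 (SE; edgeR adjusted p = 0.260) and *Nrip1*, a corepressor of nuclear receptors, at -1.43 ± 0.46 (SE; edgeR adjusted p = 0.355). *Kdm3a*, a histone demethylase, was at 0.63 ± 0.26 (SE; edgeR adjusted p = 0.472).

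Of 32 other brown fat transcription factors, 30 were tested, *Foxc2* and *Nr0b2* being too low. At an unadjusted p under 0.05, 1 was higher and 7 lower, against 3.86% and 6.62% of all tested genes. With the replicate block 2 were higher and 12 lower, against 8.75% and 8.76%. Their median log2 fold change was -0.35, or -0.14 with the replicate block. It was -0.68 without LFD-fed mouse 3, -0.20 without LFD-fed mouse 1 and -0.20 without HFD-fed mouse 3. *Tbx15*, a mesenchymal T-box factor, had 4.38, 4.56 and 3.24 TPM in HFD-fed and 11.8, 33.0 and 25.3 TPM in LFD-fed mice. All of its HFD-fed values were below all LFD-fed values, at a log2 fold change of -2.11 ± 0.36 (SE, n = 3 mice per diet; edgeR adjusted p = 0.170). *Zbtb16*, a zinc finger factor, was at -1.95 ± 0.46 (SE; edgeR adjusted p = 0.212), *Nr1d1*, the clock repressor REV-ERBalpha, at -1.70 ± 0.47 (SE; edgeR adjusted p = 0.280), and *Lhx8*, a homeobox marker of brown fat, at -1.43 ± 0.36 (SE; edgeR adjusted p = 0.241). For these 4 genes every HFD-fed mouse was below every LFD-fed mouse in log2 CPM, a pattern of 9.23% of all tested genes. *Tbx15* and *Zbtb16* are also expressed in muscle and mesenchymal cells, and the skeletal muscle list given above was lower in the same mice. The part of cell composition in the values of these 4 genes was not tested.

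Of 32 target genes of the PPARs, ERRs and PGC-1 coactivators, 31 were tested and *Fgf21* was not. The median log2 fold change was 1.28, and 24 were positive. At an unadjusted p under 0.05, 8 were higher and 1 lower, against 3.86% and 6.62% of all tested genes. With the replicate block 19 were higher and 2 lower, against 8.75% and 8.76%. The median was 2.31 without LFD-fed mouse 1 and 0.78 without LFD-fed mouse 3. *Gk*, which encodes glycerol kinase, had 78.6, 161 and 60.1 TPM in HFD-fed and 17.8, 7.29 and 10.8 TPM in LFD-fed mice. The lowest HFD-fed mouse was above the highest LFD-fed mouse, a pattern of 6.72% of all tested genes in log2 CPM. The log2 fold change of *Gk* was 3.10 ± 0.69 (SE, n = 3 mice per diet, edgeR adjusted p = 0.192). *Fabp3*, a cytosolic fatty acid carrier, was separated in the same way, at 3.32 ± 0.76 (SE; edgeR adjusted p = 0.200), and *Acot2*, a mitochondrial thioesterase, was at 1.297 ± 0.43 (SE; edgeR adjusted p = 0.372). *Slc27a1*, a fatty acid transporter of muscle and fat, went the other way at -1.96 ± 0.64 (SE; edgeR adjusted p = 0.363). Every brown adipocyte marker except *Otop1* is also in the target list, so these lists are not separate readouts. The target list also holds *Plin1*, *Fabp4* and *Lpl* of the adipocyte markers.

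For each regulator the tested gene whose centred log2 CPM over the 6 mice was nearest was found among 12088 candidates, by the root mean square distance, which is a description over 6 points that share libraries and diets. *Ppargc1a* and *Esrrg* were each the nearest gene to the other, at a distance of 0.159 beside a spread of 1.11 and 1.22 of their own profiles. The nearest gene to *Ppara* was *Cpt1b*, which encodes the muscle-type enzyme that admits fatty acids to mitochondria, at 0.112. *Cpt1b* had 349, 493 and 163 TPM in HFD-fed and 121, 56.5 and 22.2 TPM in LFD-fed mice, the same order of mice as in *Ppara*, with LFD-fed mouse 1 just above HFD-fed mouse 3 in log2 CPM.

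The nearest gene to *Ppargc1b* was *Adrbk2*, a kinase that desensitizes adrenergic receptors, at 0.0868, and to *Esrra* it was *Slc25a51*, a mitochondrial carrier, at 0.0798. *Prdm16* was nearest to *Rgl3* at 0.152, *Pparg* to *Flad1*, which encodes FAD synthase, at 0.151, and *Ebf2* to *Rnaset2a* at 0.0665. *Zfp516* was nearest to *Mkl1*, a coactivator of serum response factor, at 0.0654, and *Irf4* to *Rab40b* at 0.205, the largest of these distances. *Ppargc1b* was the member nearest to *Prdm16* and the reverse, at 0.305. For *Irf4* the closest other member was *Ebf2* at 0.817, with 5230 genes nearer, and *Ebf2* and *Zfp516* likewise had no close member, since 7610 and 5328 genes were nearer to them than each was to the other.

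**Figure D5:**
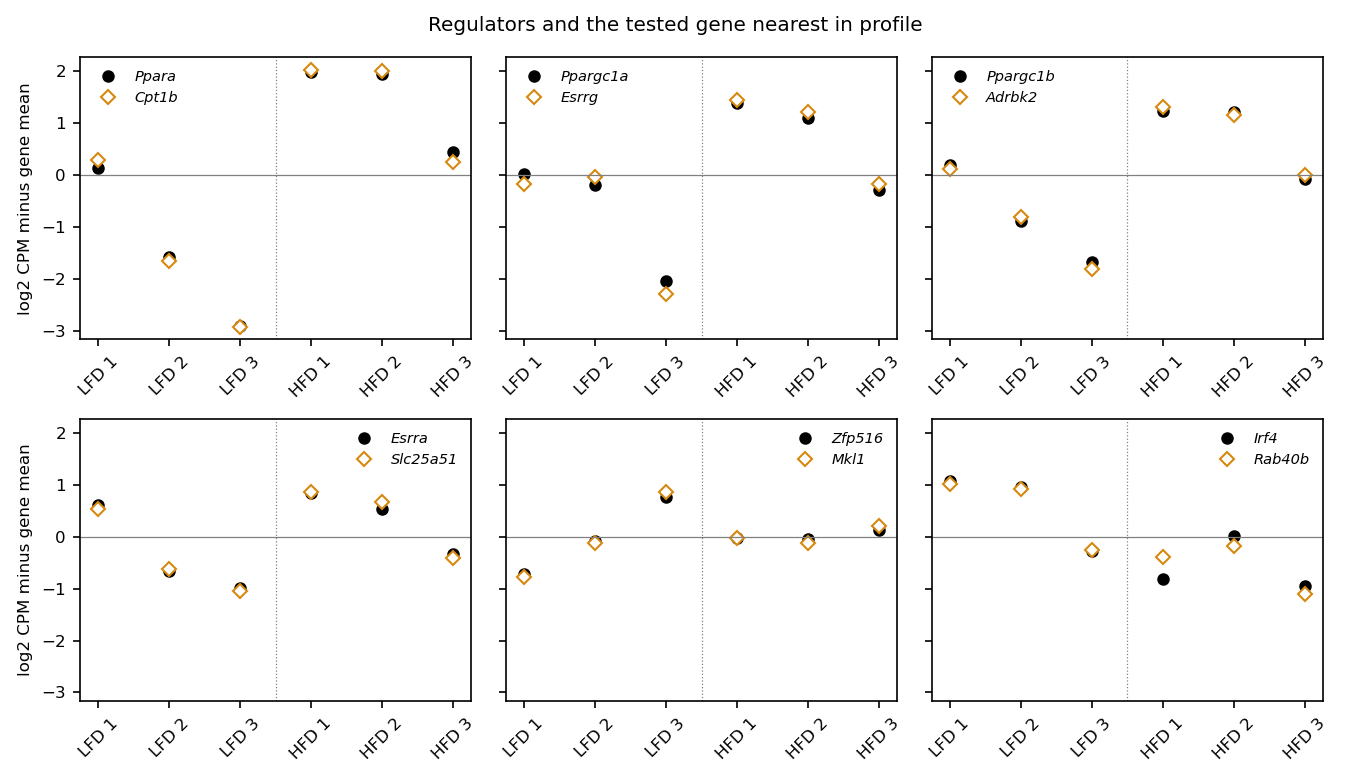
Log2 CPM minus the mean of the gene over the 6 mice, for 6 regulators (filled circles) and the tested gene nearest to each (open diamonds); LFD-fed mice 1 to 3 stand left of the dotted line and HFD-fed mice 1 to 3 right of it. *Ppara* and *Cpt1b* span the widest range, *Ppargc1a* and *Esrrg* lie together with LFD-fed mouse 3 far below the rest, and *Irf4* and *Rab40b* are high in LFD-fed mice 1 and 2.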

How the data were processed

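Expected counts, which need not be whole, and TPM were deposited by the authors for each gene and mouse, together with gene lengths and 95% credibility bounds of TPM. Per the labels and the methods of the study, single reads of 75 bases were trimmed with Trimmomatic 0.36 and quantified with RSEM 1.3.0 on GRCm38.p4 (Ensembl 84); the strand setting is not given in the sources used here. Positions are those of GENCODE M21. The 10 regulators, the lists and the tests were chosen with earlier results of these data known.

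Expected counts were rounded and fitted in R 4.3.3 with edgeR 4.0.16 (quasi-likelihood test, TMM, filterByExpr, diet as the only term) over all 6 mice, and adjusted by Benjamini-Hochberg over 17668 genes. Fold changes come from this fit, log2 CPM used a prior count of 2, and within-mouse ratios used TPM + 0.1. Depth was 17156991 to 21603487 counts per mouse. SE and SD describe the spread between mice, whereas the credibility bounds of TPM belong to a single mouse and do not. The SE was obtained from the unshrunk log2 fold change and the F statistic of the quasi-likelihood test. Same-diet mice differed by more than sampling noise, their chi-square over its degrees of freedom being 79.7 to 621. Deviations from the diet means correlated at r = 0.229 to 0.522 in the 3 same-numbered pairs and -0.528 to 0.0532 in the others, so the numbers were taken to pair the mice, from the data alone. Deviations cancel out over the 3 mice of a diet, so positive values in some pairs go with negative values in others. The paired fit rests on this reading of the same counts. Alternatives were DESeq2 1.42.0, RLE or no size factors, other filters, the replicate block, limma 3.58.1 on log2(TPM + 1), mitochondrial genes left out, looser thresholds, other prior counts and pseudocounts, and each mouse left out. Named genes are the regulators, tested paralogues, the 4 genes of smallest p in each list of partners, transcription factors and targets, and the nearest profiles. Values of 1 tested paralogue are not reported here.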

Additional observations from a re-analysis of the deposited data

How the results depend on the processing

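Over the alternatives tried, 146 of 159 values that answer a comparison and 133 of 140 fold changes of single regulators kept their direction and side of the threshold. Counts are included where they stayed within 1.5 times, and list medians where they moved by less than the SD between mice. Many of the 146 are counts of called genes or regulators that were 0 in the main fit and stayed 0. No regulator was called under any alternative at an adjusted p under 0.01 with an absolute log2 fold change above 1.5. Genes called went from 0 to 106 higher and 305 lower under DESeq2, and to 1 higher with limma on log2(TPM + 1). Regulators with every HFD-fed mouse above every LFD-fed mouse numbered 5 rather than 2 with no normalization factors, against 4.37% of all genes (*Prdm16*, *Ppargc1a*, *Ppargc1b*, *Ppara* and *Esrrg*). On log2(TPM + 1) those above numbered 3 (*Prdm16*, *Ppargc1b* and *Ppara*), against 1.65% of genes. Those below numbered 1 rather than 0 there (*Irf4*), against 11.6% of genes. With a mouse left out, 2 to 6 were above, against 8.05% to 16.8% of genes, and 0 to 1 below, against 11.5% to 18.1%. The cause of these differences was not tested, beyond the fewer mice of the last. The sign changed for *Ebf2* on log2(TPM + 1) (-0.055) and for *Zfp516* with the replicate block (0.023); with a mouse left out, *Zfp516* ran from -0.40 to 0.38, *Pparg* from -0.41 to 0.73, and the *Ppargc1a* to *Ppargc1b* ratio from -0.46 to 0.18. With a mouse left out, the median log2 fold change of the paralogues ran from -0.015 to 0.25 and that of the other brown fat transcription factors from -0.68 to -0.20, that of the targets from 0.78 to 2.31, that of the partners from -0.18 to -0.053 and that of the regulators from 0.68 to 1.45; the *Esrra* to *Esrrg* ratio ran from -2.14 to -0.81. The replicate block, which pairs same-numbered mice, changed no call. *Esrrg* with 29 counts and *Ppara* with 85 counts in LFD-fed mouse 3 are the values most limited by depth.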

Other observations

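RSEM gives each gene a length that is the mean of its transcripts weighted by their estimated share in that mouse. For *Esrrg* this length was 3826, 3135 and 2698 bases in HFD-fed mice 1, 2 and 3, and 5119, 2897 and 5321 bases in LFD-fed mice 1, 2 and 3. It was 2144, 2136 and 2274 bases in HFD-fed mice and 2074, 2113 and 1663 bases in LFD-fed mice for *Ppara*, where the smallest value came from 85 counts. For *Irf4*, with lengths of 4714 bases in all 6 mice, it did not vary. The transcripts were not analysed here.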
